A study of Mus musculus with 12 samples.

Results

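The genes described here encode subunits of respiratory complexes I, II and III and of the ATP synthase (complex V), with a set of complex I assembly factors, and were measured in natural killer (NK) cells that lack or carry the microRNA miR-142. They were chosen by name: all symbols that begin with Nduf, Uqcr or Atp5, and Sdha, Sdhb, Sdhc, Sdhd and Cyc1. Only probe sets annotated with 1 gene symbol were used, and the probe set with the highest mean signal stood for its gene. This gave 73 of the 19938 genes on the array, namely 34 subunits of complex I, 7 complex I assembly factors, 4 subunits of complex II, 9 of complex III, 17 of complex V, and the related pair Ndufa4 and Ndufa4l2. A mean log2 signal above 5.49 (the 40th percentile) was required for testing, which kept 72 members among 11963 genes. Ndufa4l2 lay below that level and Ndufaf6, with a mean of 5.54, was the member just above it. The subunits made from mitochondrial DNA were not analysed here.

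Arrays were run on CD3- NK1.1+ cells sorted from C57BL6 mice. The animals were between 7 and 10 weeks old, with age and sex matched. There were 4 groups of 3 arrays: miR142 KO bone marrow, miR142 WT bone marrow, miR142 KO spleen and miR142 WT spleen. The labels name the arrays of a group biological replicates and do not say how many animals stood behind each, so a p-value here measures the spread between these arrays. The labels name no promoter or cell type that would limit the knockout to some cells. Values are log2 signals, and a difference of 1 is a 2-fold change.

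Electrons from NADH enter the respiratory chain at complex I and those from succinate at complex II. Complex III passes them on to cytochrome c, complex IV hands them to oxygen, and complex V uses the proton gradient so built to make ATP. Most of the subunits are encoded in the nucleus and imported into mitochondria, where assembly factors help to build the complexes without staying in them. NK cells are known to raise respiration when cytokines activate or expand them.

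Mir142, the targeted gene, read 4.69, 4.71 and 4.26 in KO bone marrow, against 7.10, 8.25 and 7.14 in WT bone marrow. It read 4.05, 4.60 and 4.50 in KO spleen, against 6.77, 7.17 and 7.58 in WT spleen. Every KO array was below every WT array, and the difference was -2.72 ± 0.32 (SE) in bone marrow and -2.91 ± 0.29 in spleen (limma, adjusted p = 3e-04 and 7.3e-05). The mature products of this gene, which the KO mice lack, are shown because they define the genotype. They lie on chr11:87756867-87756887 and chr11:87756903-87756925 of the plus strand in RefSeq (GRCm38.p6), with the seed, bases 2 to 8, in capitals.
mmu-miR-142a-5p: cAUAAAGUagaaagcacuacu
mmu-miR-142a-3p: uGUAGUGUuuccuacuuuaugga

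Over all genes the correlation was 0.968 to 0.986 within groups and 0.928 to 0.979 between them. The 9 NK markers, among them Ncr1, Klrb1c and Nkg7, had group means of 9.30 to 12.71. Other cell types' markers differed between the groups in ways that run beside the results below. The mean level of the granulocyte markers above the low-signal level (9 of 13 listed, each centred on its mean over all arrays) was -0.373 to 0.391 in KO bone marrow and 0.80 to 1.19 in WT bone marrow. It was -0.715 to -0.0236 in KO spleen and -1.17 to -0.586 in WT spleen. Ltf, Mmp8, Mmp9 and Ly6g, also granulocyte genes, lay below the low-signal level, with group means of 3.57 to 5.69. The 13 cell cycle genes averaged -0.423 to 0.798 in KO bone marrow and 0.406 to 1.19 in WT bone marrow, against -0.50 to -0.286 in KO spleen and -0.739 to -0.321 in WT spleen. The dendritic cell markers above the low-signal level (3 of 8 listed, Itgax, H2-Aa and H2-Ab1) stood at 0.327 to 0.482 in KO bone marrow, -0.732 to -0.389 in WT bone marrow, 0.583 to 1.14 in KO spleen and -0.932 to -0.364 in WT spleen. Siglech, Flt3, Xcr1, Clec9a and Cd209a, also on that list, lay below the low-signal level, with group means of 3.68 to 5.50. Itgax had group means of 10.04 to 11.79, within the range of the NK markers. The T cell markers (6 of 8 listed) stood at -0.501 to -0.142, 0.664 to 0.859, -0.48 to -0.157 and -0.168 to -0.0468 in the same order of groups. The monocyte and macrophage markers (3 of 5 listed, Lyz2, Ms4a6c and Ccr2) stood at -0.105 to 0.301 in KO bone marrow, 0.366 to 0.683 in WT bone marrow, -0.915 to -0.511 in KO spleen and -0.0898 to 0.35 in WT spleen. Csf1r and Adgre1 lay below the low-signal level, with group means of 3.905 to 5.271. Ccr2 had group means of 9.722 to 11.28, within the range of the NK markers. In bulk RNA of this kind, fewer cells of a type and less RNA per cell cannot be told apart.

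As a group the respiratory genes were lowest in WT spleen. Each of the 72 genes was centred on its mean over the 12 arrays and the genes were then averaged within an array. The KO bone marrow arrays stood at 0.137, 0.0965 and 0.0724 and the WT bone marrow arrays at 0.137, 0.0257 and 0.112, so the genotypes overlapped there. The KO spleen arrays stood at -0.0495, -0.0572 and 0.0164 and the WT spleen arrays at -0.138, -0.219 and -0.133. Every WT spleen array lay below every KO spleen array, and every KO spleen array lay below every bone marrow array of either genotype. For 52 of 72 members (72.2%, against 23.7% of all genes tested) WT spleen had the lowest of the 4 group means. For 34 members (47.2%, against 10% of all genes) KO spleen lay between WT spleen and both bone marrow groups. The 58 members that passed no test in any comparison showed the same order of arrays, with 0.0471 to 0.114 in KO bone marrow, 0.0239 to 0.121 in WT bone marrow, -0.0745 to 0.0101 in KO spleen and -0.184 to -0.0976 in WT spleen.

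**Figure D1:**
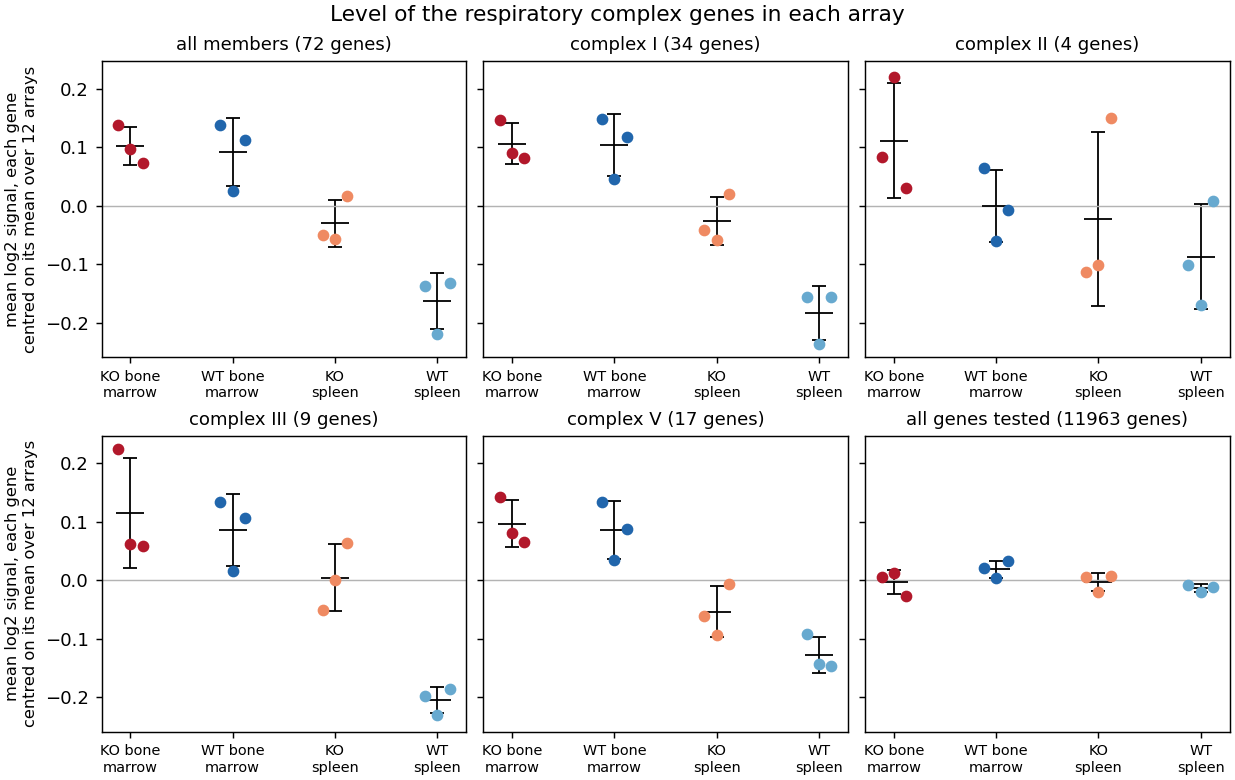
Each point is 1 array, and its height is the mean log2 signal of the genes named above the panel after each gene was centred on its mean over the 12 arrays; horizontal marks and bars are the mean and SD of 3 arrays. All 3 WT spleen arrays lie between -0.219 and -0.133 in the panel of all members, below the other 9 arrays, while the panel of all 11963 genes tested stays within -0.0268 and 0.033.

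By complex the arrays lay as follows. Complex I stood at 0.0817 to 0.146 in KO bone marrow, 0.0453 to 0.148 in WT bone marrow, -0.0592 to 0.0192 in KO spleen and -0.236 to -0.156 in WT spleen. Complex III had levels of 0.0586 to 0.224, 0.0163 to 0.134, -0.0507 to 0.0633 and -0.23 to -0.186 in the same 4 groups, so its WT spleen arrays again stood apart. Complex V ran from 0.0654 to 0.142 and from 0.035 to 0.134 in the bone marrow groups, and its KO spleen arrays (-0.0932 to -0.00706) overlapped those of WT spleen (-0.147 to -0.0922). Complex II, with 4 genes, stood at 0.0308 to 0.22 in KO bone marrow and -0.0599 to 0.0635 in WT bone marrow, and its KO spleen arrays (-0.114 to 0.149) overlapped those of WT spleen (-0.17 to 0.00821). The heat map of single genes shows the same blocks.

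**Figure D2:**
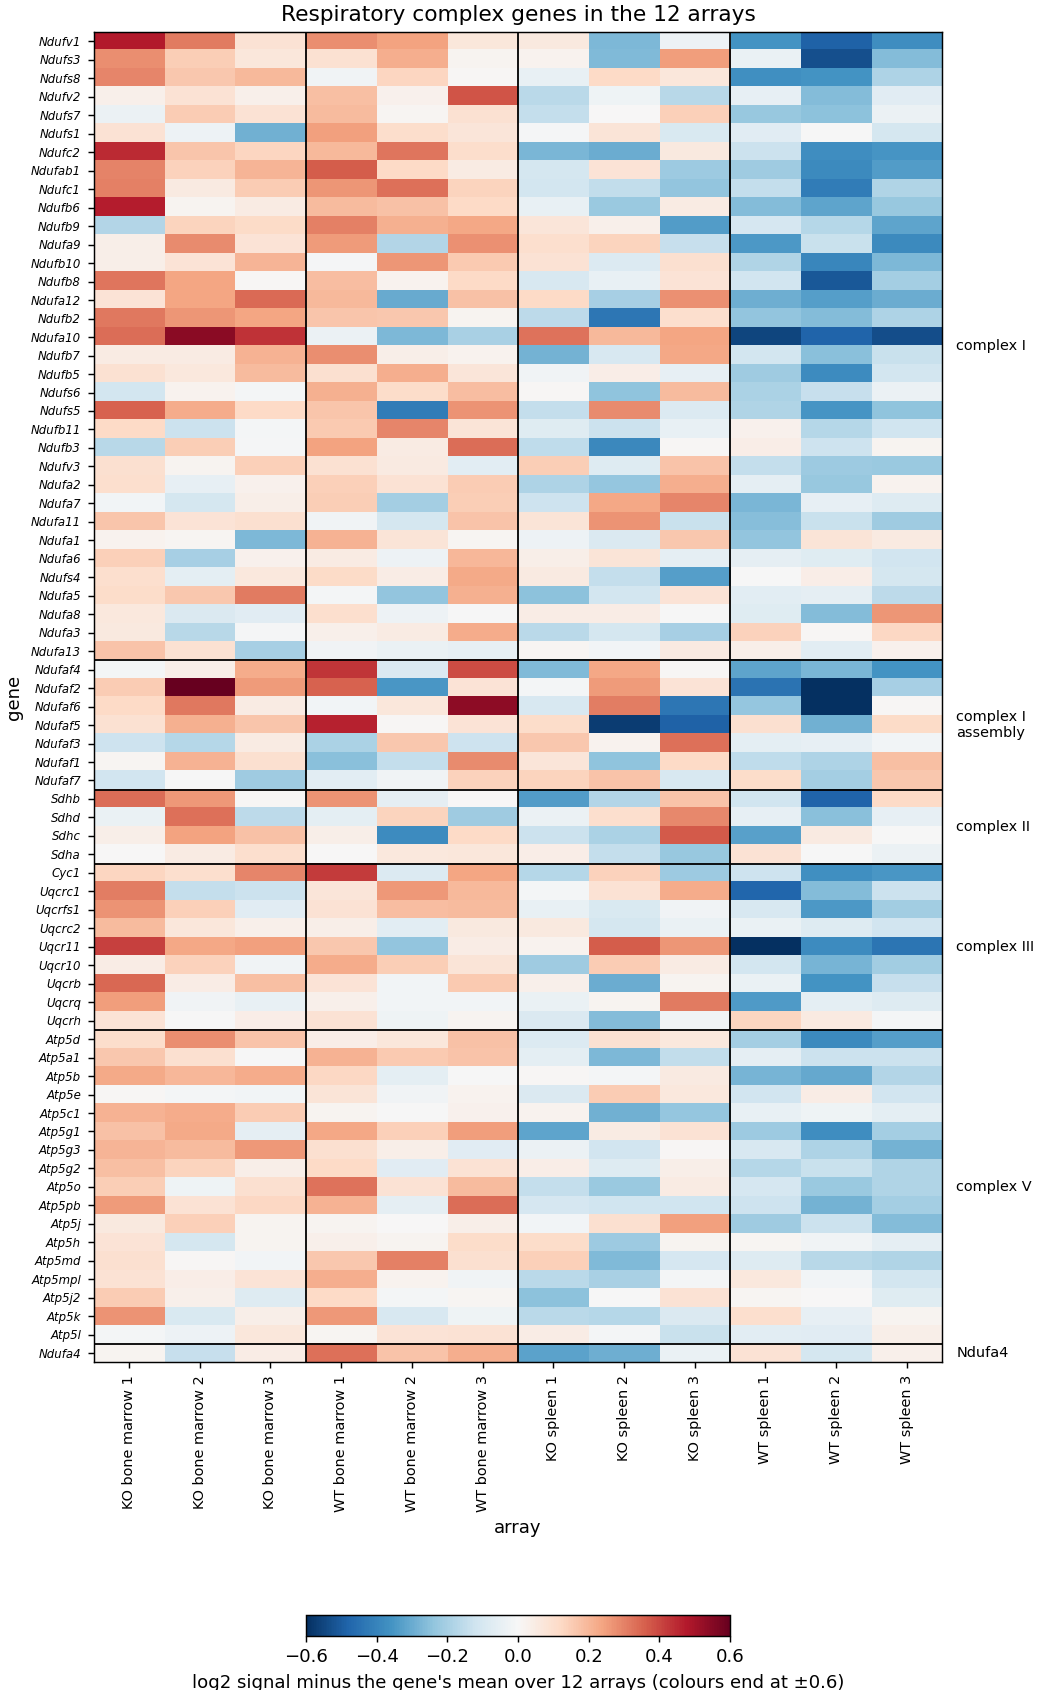
Rows are the 72 tested genes by complex and columns the 12 arrays by group; colour is the log2 signal minus the gene's mean over all arrays, red above and blue below, with the scale ending at 0.6 on either side. The WT spleen columns are mostly blue, with WT spleen the lowest of the 4 groups for 52 genes, and Ndufa10 is red in both KO blocks.

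KO and WT cells were compared within each tissue and over both, which asks what the loss of miR-142 goes with in these genes. Few members passed, and all differences were small. In bone marrow 1 of 72 members was higher in KO cells and 0 lower, 1.39% against a background of 8.65% of all genes tested (3.92% higher and 4.73% lower). In spleen 3 were higher and 0 lower, 4.17% against 9.11% (5.48% higher and 3.63% lower). Over both tissues 5 were higher and 1 lower, 8.33% against 19.1% (8.81% higher and 10.3% lower). In each comparison the members' share was below the background, and no member reached a 2-fold difference. In the same comparisons the 3 dendritic cell markers above the low-signal level, of 8 listed, were higher in KO spleen. Of the 3 monocyte and macrophage markers above that level, Ms4a6c at -1.29 and Ccr2 at -1.33 were lower there (limma, adjusted p = 0.00063 and 4.6e-05). The third, Lyz2, was at 0.45 in spleen and did not pass (adjusted p = 0.53). In KO spleen 2 of 6 T cell markers, Cd3d at -1.05 and Cd28 at -0.92, were also lower (limma, adjusted p = 0.014 and 0.0019). There 1 of 9 granulocyte markers, S100a8 at 1.81, was higher (limma, adjusted p = 0.0098). In KO bone marrow 4 of 6 T cell markers, 4 of 9 granulocyte markers and 4 of 13 cell cycle genes were lower. Of the 3 dendritic cell markers 1, Itgax at 1.46, was higher there (limma, adjusted p = 3.1e-05). Of these marker lists, the granulocyte and cell cycle levels were set against the members' calls as covariates, and the part of the others was not tested. The granulocyte level did not overlap between KO and WT bone marrow arrays, so a fit with it cannot tell that level from the genotype there.

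As a description of the whole group, in spleen 56 of 72 members had a KO minus WT difference above 0 (77.8%, against 47.2% of all genes), with a median difference of 0.129, against -0.0133 over all genes. Without WT spleen 3 the members' median was 0.209. In bone marrow 30 members were above 0 (41.7%, against 48.1% of all genes), with a median of -0.0166, against -0.0125 over all genes. The all-gene median there was 0.0346 without the low-signal filter and -0.0806 with a filter at the 60th percentile. The members' median was -0.0163 and -0.0169 under these settings. The sign of the members' bone marrow median was not stable. It was above 0 in 4 of 23 alternatives, at 0.0572 when the arrays were quantile normalized again, 0.00275 with the cell cycle covariate, 0.0133 without KO bone marrow 2 and 0.0111 without WT bone marrow 1. Over both tissues 49 members were above 0 (68.1%, against 48.4% of all genes). Within the runs of array numbers the members' spleen median was 0.194 in the first (1 KO and 2 WT arrays) and 0.0855 in the second (2 KO and 1 WT). In bone marrow only the first run held both genotypes (3 KO and 1 WT array), and the median there was -0.0414. In spleen the KO and WT arrays did not overlap for 24 members with KO higher and 3 with KO lower, 37.5% against a background of 28.0% (14.0% with KO higher and 14.0% with KO lower). In bone marrow they did not overlap for 7 members with KO higher and 3 with KO lower, 13.9% against 34.2% (16.4% higher and 17.8% lower).

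**Figure D3:**
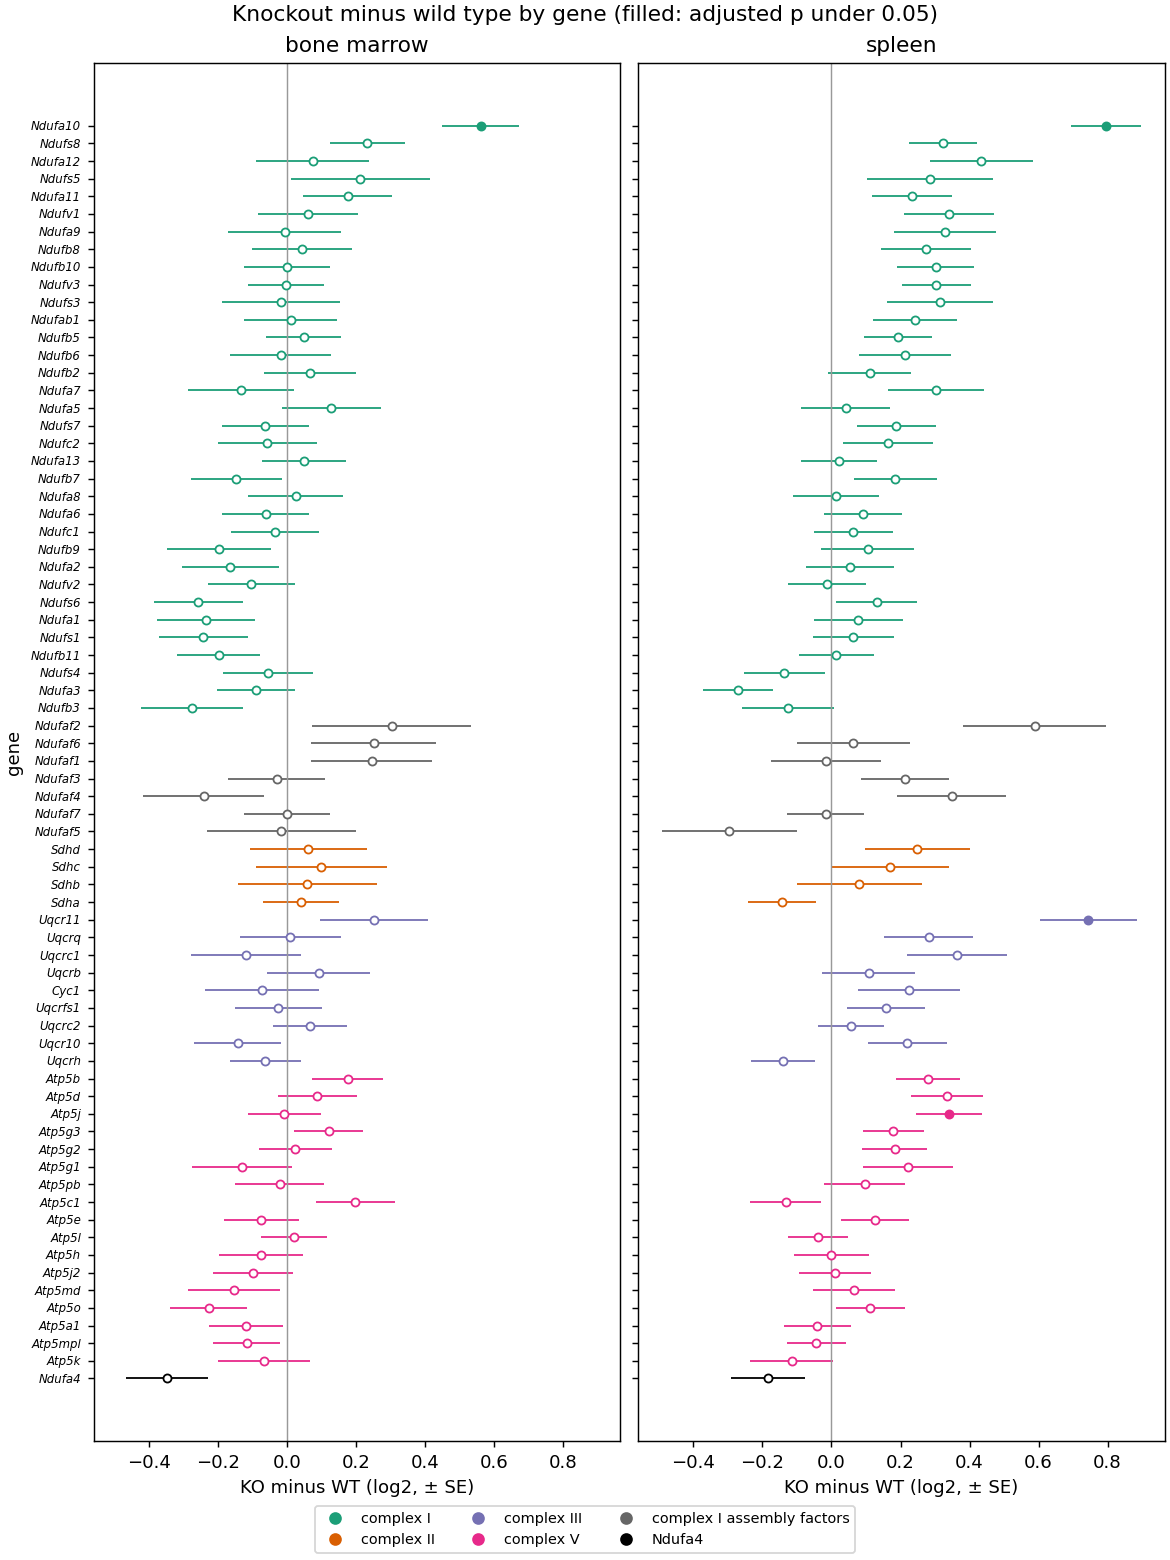
Each row is 1 gene, ordered within its complex by the difference over both tissues; points are the log2 difference KO minus WT with bars of 1 SE, in bone marrow on the left and spleen on the right, and filled points passed an adjusted p of 0.05. Only Ndufa10 is filled in bone marrow, and Ndufa10, Uqcr11 and Atp5j are filled in spleen, where most points lie right of 0.

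Ndufa10, an accessory subunit on the matrix side of complex I, changed most. It read 10.29, 10.50 and 10.39 in KO bone marrow, against 9.92, 9.68 and 9.76 in WT bone marrow. In spleen it read 10.28, 10.15 and 10.19 in KO cells, against 9.40, 9.47 and 9.43 in WT cells. All 6 KO arrays lay above all 6 WT arrays. KO cells were higher by 0.56 ± 0.11 (SE) in bone marrow, a fold of 1.48, and by 0.79 ± 0.10 in spleen, a fold of 1.74 (limma, adjusted p = 0.0098 and 0.00043). Over both tissues the difference was 0.68 ± 0.07 (adjusted p = 3.7e-05), and within runs it was 0.471 in bone marrow and 0.753 and 0.791 in spleen. The bone marrow call was lost, at 0.283 and adjusted p = 0.54, with the granulocyte marker level as a covariate, and at 0.554 and 0.067 with the cell cycle level. As the granulocyte level did not overlap between KO and WT bone marrow, the fit with it cannot tell that level from the genotype.

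Uqcr11, the smallest subunit of complex III, had the next largest difference over both tissues. It read 10.12, 9.94 and 9.95 in KO bone marrow, against 9.87, 9.47 and 9.75 in WT bone marrow. In spleen it read 9.73, 10.07 and 9.97 in KO cells, against 9.02, 9.33 and 9.27 in WT cells. The groups did not overlap in either tissue, but the bone marrow difference, 0.25 ± 0.16, did not pass (adjusted p = 0.35). The spleen difference was 0.74 ± 0.14 (adjusted p = 0.006) and that over both tissues 0.50 ± 0.10 (adjusted p = 0.0036). A second probe set of Uqcr11 gave 0.74 in spleen and 0.24 in bone marrow. With the granulocyte level as a covariate the spleen difference was 0.657 and no longer passed (adjusted p = 0.15).

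The promoters of Ndufa10 and Uqcr11 are shown because these members had the largest KO minus WT differences, beside the letters of motifs known from promoters of respiratory genes. Each runs from 250 bases before to 50 bases after the start listed in RefSeq (GRCm38.p6), on the minus strand, at chr1:92473709-92474008 for Ndufa10 and chr10:80406772-80407071 for Uqcr11. Capitals mark matches, on either strand, to NRF1 (GCGCATG), ETS (CCGGAAG), YY1 (AAGATGG), ERR (AAGGTCA) and SP1 (GGGCGG).
Ndufa10: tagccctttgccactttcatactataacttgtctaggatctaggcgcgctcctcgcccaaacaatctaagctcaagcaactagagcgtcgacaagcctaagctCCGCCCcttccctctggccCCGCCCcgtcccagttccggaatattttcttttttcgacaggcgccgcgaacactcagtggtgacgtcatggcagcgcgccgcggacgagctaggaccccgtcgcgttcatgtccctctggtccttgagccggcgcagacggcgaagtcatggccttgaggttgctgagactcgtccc
Uqcr11: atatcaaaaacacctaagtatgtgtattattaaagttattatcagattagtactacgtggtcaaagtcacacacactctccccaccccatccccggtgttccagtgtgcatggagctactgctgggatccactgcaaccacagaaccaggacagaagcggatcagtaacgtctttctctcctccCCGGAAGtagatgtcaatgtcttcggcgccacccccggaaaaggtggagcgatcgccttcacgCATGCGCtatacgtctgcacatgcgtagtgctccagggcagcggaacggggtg
Ndufa10 has a pair of SP1 matches and Uqcr11 has 1 ETS and 1 NRF1 match, the last covering the start. RefSeq promoters were found for 61 of the 73 members, 66 in all. NRF1 letters were in 19.7% of them, against 3.91% of all 32851 promoters and 6.57% of the promoters of tested genes. ETS letters were in 22.7%, against 8.86% and 16.9%, and YY1 letters in 15.2%, against 6.34% and 7.03%. ERR letters were in 10.6%, against 4.72% and 3.25%, and SP1 letters in 42.4%, against 35.7% and 60.5%. A match describes the letters in the window and not the binding of a factor.

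Ndufs8, an iron-sulfur subunit of the complex I core, read 9.16, 9.03 and 9.06 in KO bone marrow, against 8.84, 8.99 and 8.87 in WT bone marrow. It read 8.82, 8.99 and 8.93 in KO spleen, against 8.50, 8.51 and 8.68 in WT spleen. The groups did not overlap in either tissue, and the differences were 0.23 ± 0.11 and 0.32 ± 0.10. Neither passed alone (adjusted p = 0.22 and 0.064), while that over both tissues did, at 0.28 ± 0.07 (adjusted p = 0.014). Ndufaf2, an assembly factor that acts late in the building of complex I, read 7.70, 8.16 and 7.81 in KO bone marrow, against 7.91, 7.21 and 7.64 in WT bone marrow. It read 7.54, 7.81 and 7.63 in KO spleen, against 7.11, 6.76 and 7.36 in WT spleen. The genotypes overlapped in bone marrow and not in spleen, and the difference over both tissues was 0.45 ± 0.14 (adjusted p = 0.049). That call was lost when any 1 array other than WT spleen 3, KO bone marrow 1 or WT bone marrow 1 was left out, with adjusted p of 0.065 to 0.14 and differences of 0.344 to 0.483. Among other settings it was also lost with the granulocyte covariate, with a block for replicate numbers (adjusted p = 0.067) and without the low-signal filter (adjusted p = 0.064).

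Of the other complex I subunits, Ndufb3, an accessory subunit of the membrane arm, had the lowest difference over both tissues, -0.20 ± 0.09 (adjusted p = 0.16). Ndufaf5, an assembly factor that modifies a core subunit, was lowest among the assembly factors, at -0.16 ± 0.13 (adjusted p = 0.48), with KO spleen arrays at 7.43, 6.75 and 6.83 and WT spleen arrays at 7.41, 7.03 and 7.44. By role, 5 of 6 core subunits and 25 of 28 accessory subunits were above 0 in spleen, against 2 of 6 and 11 of 28 in bone marrow.

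In complex II no gene passed. Sdha, the flavoprotein, differed by 0.04 in bone marrow (95% interval -0.20 to 0.28) and by -0.14 in spleen (-0.36 to 0.07). Sdhb, the iron-sulfur subunit, differed by 0.06 (-0.38 to 0.50) and 0.08 (-0.31 to 0.48). The membrane anchor Sdhc differed by 0.10 (-0.32 to 0.51) and 0.17 (-0.20 to 0.54), and the other anchor, Sdhd, by 0.06 (-0.31 to 0.43) and 0.25 (-0.09 to 0.58). In spleen the intervals of Sdhb, Sdhc and Sdhd hold the 0.34 by which Atp5j differed, and that of Sdha does not. In complex III, Cyc1, the cytochrome subunit, differed by -0.07 ± 0.17 in bone marrow and 0.22 ± 0.15 in spleen, and Uqcrh, the hinge subunit, had the lowest difference over both tissues, -0.10 ± 0.06 (adjusted p = 0.31).

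In complex V the calls lay in the catalytic head and the stalk. Atp5b, the catalytic subunit, read 10.58, 10.55 and 10.57 in KO bone marrow, against 10.47, 10.29 and 10.35 in WT bone marrow. It read 10.35, 10.34 and 10.40 in KO spleen, against 10.07, 10.04 and 10.17 in WT spleen. The groups stood apart in both tissues, and over both the difference was 0.23 ± 0.06 (adjusted p = 0.027). It passed in 13 of 22 alternatives, and without KO spleen 1 or 2, WT spleen 1 or 2, KO bone marrow 1 or 3, or WT bone marrow 2 or 3 the adjusted p was 0.05 to 0.08. The call of Atp5b was also lost with the granulocyte level as a covariate.

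Atp5j, a subunit of the peripheral stalk that holds the head still, read 10.49, 10.57 and 10.45 in KO bone marrow, against 10.45, 10.43 and 10.47 in WT bone marrow. It read 10.42, 10.53 and 10.68 in KO spleen, against 10.22, 10.30 and 10.17 in WT spleen. KO and WT overlapped in bone marrow and stood apart in spleen, where the difference was 0.34 ± 0.10 (adjusted p = 0.045), against -0.01 ± 0.11 in bone marrow. The spleen call was lost in 17 of 23 alternatives, with a lowest difference of 0.267 (adjusted p = 0.26) without KO spleen 3, and was also lost without KO spleen 2, any WT spleen or KO bone marrow array, or WT bone marrow 2 or 3 (adjusted p = 0.053 to 0.17), with the granulocyte covariate (0.358, adjusted p = 0.27) or with the cell cycle covariate (0.352, adjusted p = 0.054).

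The genes Atp5g1, Atp5g2 and Atp5g3 encode the same mature c subunit of the rotor ring. They differed by -0.13, 0.02 and 0.12 in bone marrow and by 0.22, 0.18 and 0.18 in spleen, and none passed. Atp5k, a small membrane subunit at the contact between 2 ATP synthases, had the lowest difference over both tissues in complex V, -0.09 ± 0.08 (adjusted p = 0.50). All 5 small membrane subunits were below 0 over both tissues, with values from -0.09 to -0.01 and none past the test.

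Ndufa4 was the only member called lower in KO cells, and this was over both tissues. It was first assigned to complex I and is now counted with complex IV. It read 11.36, 11.20 and 11.39 in KO bone marrow, against 11.68, 11.51 and 11.56 in WT bone marrow. It read 11.02, 11.05 and 11.30 in KO spleen, against 11.43, 11.24 and 11.37 in WT spleen. The genotypes stood apart in bone marrow and overlapped in spleen, where KO spleen 3 lay above WT spleen 2. The difference was -0.27 ± 0.07 over both tissues (adjusted p = 0.025), with -0.35 ± 0.12 in bone marrow (adjusted p = 0.095) and -0.18 ± 0.11 in spleen (adjusted p = 0.36). The call was lost with the granulocyte covariate (-0.237, adjusted p = 0.082) and without KO spleen 1 or 2, WT spleen 1, KO bone marrow 2 or WT bone marrow 1, with adjusted p of 0.061 to 0.08. Ndufa4l2, its relative known from hypoxic cells, read 4.83 to 4.91 in KO bone marrow, 4.43 to 4.82 in WT bone marrow, 4.63 to 4.99 in KO spleen and 4.78 to 5.01 in WT spleen, and was not tested.

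**Figure D4:**
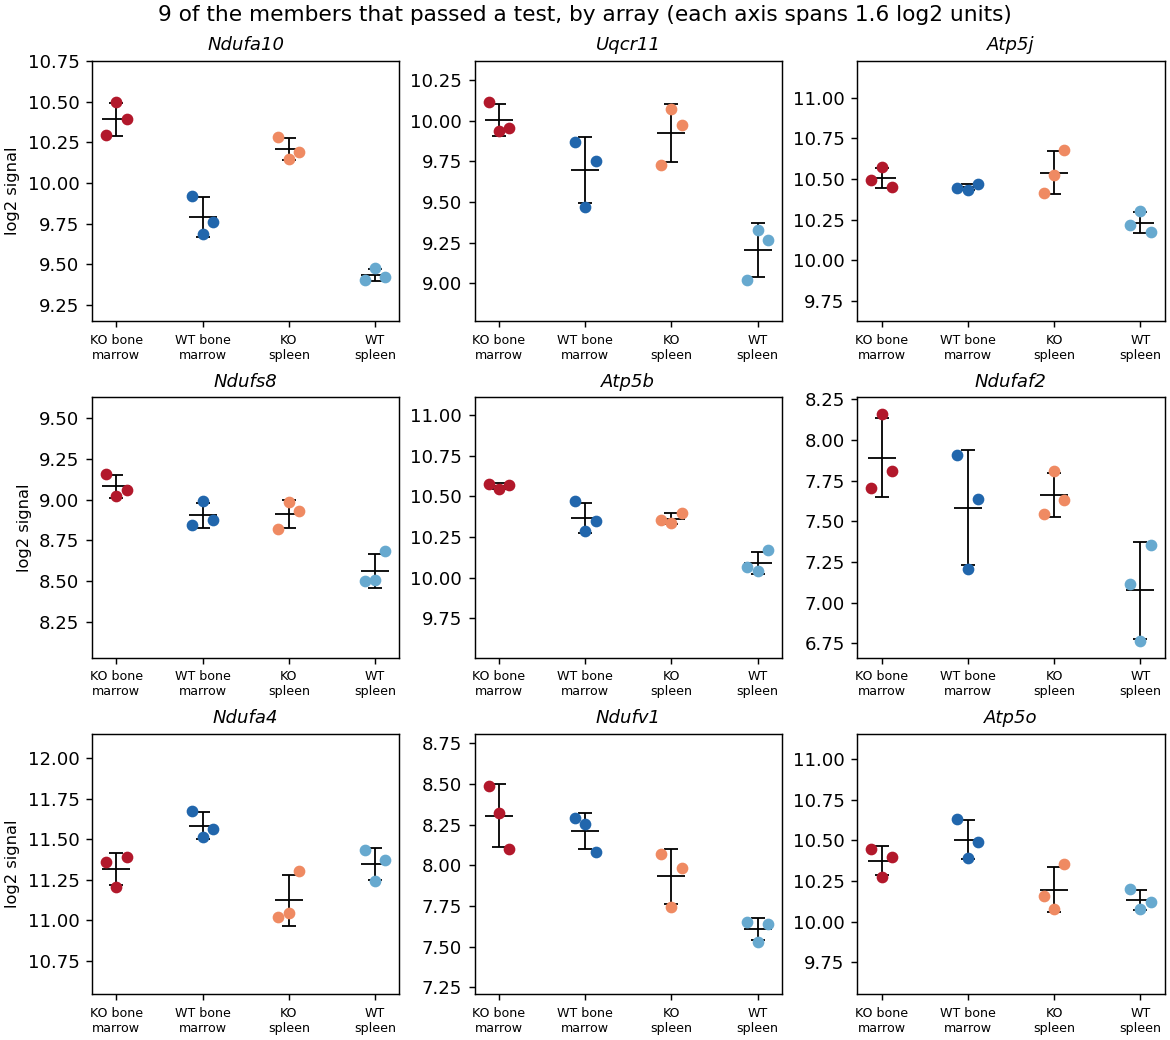
Log2 signal of 9 members in each array, with the mean and SD of 3 arrays; every vertical axis spans 1.6 log2 units around the gene's own range. Ndufa10 lies at 10.15 to 10.50 in the 6 KO arrays and 9.40 to 9.92 in the 6 WT arrays, and Ndufa4 is the gene called lower in KO cells over both tissues.

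Bone marrow and spleen were then compared within each genotype. These comparisons share their arrays with those above, WT spleen and WT bone marrow among them, so the values stand side by side and are not independent of each other. In WT cells most respiratory genes had a higher mean in bone marrow than in spleen. Of 72 members, 67 had a bone marrow minus spleen difference above 0 (93.1%, against 47.1% of all genes), and the median was 0.27, against -0.02 over all genes, with members from -0.07 to 0.62. This background was not matched to the members' signal. Its median was -0.0626 without the low-signal filter and 0.0396 with a filter at the 60th percentile, where the members' median stayed at 0.271. Array lower quartiles were 4.55 to 4.6 in WT bone marrow and 4.67 to 4.72 in WT spleen. Upper quartiles were 7.4 to 7.42 and 7.33 to 7.37. The part of signal level in the contrast was not tested. The members' median stayed between 0.197 and 0.346 in 22 alternatives, rescaled arrays included. Within runs it was 0.306 in the first (1 WT bone marrow and 2 WT spleen arrays) and 0.204 in the second (2 and 1). Bone marrow and spleen arrays did not overlap for 46 members, all with bone marrow higher, 63.9% against a background of 31.6% (16.4% with bone marrow higher and 15.2% with it lower).

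The test passed 7 members, all higher in WT bone marrow, 9.72% against 5.37% of all genes tested (4.34% higher and 1.04% lower). The count depended on single arrays: it was 0 without WT spleen 1, 2 or 3 or without WT bone marrow 1, 3 to 4 without WT bone marrow 2 or 3 or KO bone marrow 2, and 5 to 8 without any 1 of the other 5 arrays. It was 24 of 72 when arrays were centred on their medians, where 8.17% of all genes tested passed. When the arrays were quantile normalized again it was 1 of 72, where 5% of all genes passed, so the members' share was then below the background. All of these member calls were higher in bone marrow. In the same comparison all 9 NK markers were below 0, with a median of -0.27, and 2 of them passed, Prf1 at -0.64 ± 0.14 and Gzma at -0.38 ± 0.10 (adjusted p = 0.021 and 0.046). There 7 of 9 granulocyte markers passed, with a median of 2.03, and 10 of 13 cell cycle genes, with a median of 1.22. Of 6 T cell markers 3 passed, Cd3d, Cd3e and Cd3g at 1.88, 1.46 and 1.95 (limma, adjusted p = 0.0015, 0.0048 and 0.001). Of 3 monocyte and macrophage markers Lyz2 at 1.91 and Ms4a6c at -0.77 passed (limma, adjusted p = 0.013 and 0.027). The T cell and the monocyte and macrophage levels were not used as covariates. With the granulocyte or the cell cycle level as a covariate 0 members passed, as did 0 of all genes tested. The members' median was 0.24 with the granulocyte level (0.0742 over all genes) and 0.22 with the cell cycle level (-0.00046 over all genes). Neither level overlapped between WT bone marrow and WT spleen arrays, so these fits cannot tell the level from the tissue. Among the 7 members described next, the granulocyte level left 0.07 for Ndufab1, 0.0894 for Ndufc1, 0.142 for Ndufc2, 0.276 for Ndufaf4, 0.336 for Atp5o, 0.403 for Atp5d and 0.857 for Ndufv1. With the cell cycle level Ndufv1 was at 0.163, Ndufc1 at 0.202, Ndufab1 at 0.246, Ndufc2 at 0.296, Atp5o at 0.38, Atp5d at 0.513 and Ndufaf4 at 0.897. Whether these cells or states account for the members' difference was not tested further.

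Of the 7 members, 5 belong to complex I or its assembly. Ndufv1, the core subunit that takes up electrons from NADH, read 8.29, 8.26 and 8.08 in WT bone marrow, against 7.65, 7.53 and 7.64 in WT spleen. The tissues stood apart by 0.62 ± 0.13, a fold of 1.54 (adjusted p = 0.021). Ndufaf4, an assembly factor of the early matrix arm, read 8.21, 7.69 and 8.17 in WT bone marrow, against 7.46, 7.50 and 7.42 in WT spleen, a difference of 0.60 ± 0.16 (adjusted p = 0.049). Its second WT bone marrow array lay close to the spleen arrays, and still above them.

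Ndufc2, an accessory subunit of the membrane arm, read 10.55, 10.68 and 10.46 in WT bone marrow, against 10.23, 9.98 and 10.00 in WT spleen (0.54 ± 0.13, adjusted p = 0.034). Its neighbour Ndufc1 read 9.42, 9.48 and 9.28, against 9.01, 8.73 and 8.97 (0.47 ± 0.11, adjusted p = 0.036). Ndufab1, the acyl carrier protein that also serves mitochondrial fatty acid synthesis, read 9.30, 9.05 and 8.99, against 8.72, 8.55 and 8.60 (0.50 ± 0.12, adjusted p = 0.036). None of the 3 overlapped between tissues, and further probe sets gave 0.55 for Ndufc1 and 0.43 for Ndufab1.

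In complex V, Atp5o, the stalk subunit that sits on top of the head, read 10.63, 10.39 and 10.49 in WT bone marrow, against 10.20, 10.08 and 10.12 in WT spleen, a difference of 0.42 ± 0.10 (adjusted p = 0.033). Atp5d, part of the rotating central stalk, read 10.34, 10.37 and 10.47, against 10.09, 9.91 and 9.97, a difference of 0.40 ± 0.10 (adjusted p = 0.045). Both were clear of overlap. All 17 complex V genes were above 0, with the c-ring genes Atp5g1, Atp5g2 and Atp5g3 at 0.49, 0.23 and 0.25 (adjusted p = 0.051, 0.18 and 0.13).

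In complex III all 9 genes were above 0 with a median of 0.36, and none passed. Uqcr11 was at 0.52 ± 0.14 (adjusted p = 0.056) and Cyc1 at 0.50 ± 0.15 (adjusted p = 0.076), while Uqcrh was at 0.01 ± 0.09. Complex II had the smallest median, 0.08, with Sdhb at 0.27 ± 0.18, Sdhc at 0.08 ± 0.17, Sdhd at 0.08 ± 0.15 and Sdha at 0.01 ± 0.10. The tissue arrays overlapped for all 4 complex II genes. They did not for 25 of 34 complex I genes, 7 of 9 complex III genes and 12 of 17 complex V genes (73.5%, 77.8% and 70.6%). The share of all genes was 31.6% (16.4% with bone marrow higher and 15.2% with it lower), and 4 genes are too few to set complex II against it.

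The same comparison in KO cells gave no call. No member passed in limma, against 0.318% of all genes tested (0.0920% higher and 0.226% lower), 7 had an unadjusted p under 0.05 (9.72%, against 9.25% of all genes), and the median was 0.11, against -0.01 over all genes. Still, 57 of 72 members were above 0 (79.2%, against 48.9% of all genes), and 19 had KO bone marrow arrays all above KO spleen arrays, 26.4% against 16.3% (7.62% with bone marrow higher and 8.65% with it lower). Ndufc1 was at 0.37 ± 0.13, Ndufv1 at 0.34 ± 0.14 and Ndufc2 at 0.32 ± 0.14, while Ndufaf4 was at 0.01 ± 0.18. Ndufaf6, the assembly factor close to the low-signal level, had the highest value, 0.52 ± 0.18 (adjusted p = 0.37), with 5.65, 5.85 and 5.58 in KO bone marrow, against 5.44, 5.84 and 5.10 in KO spleen.

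Whether the tissue difference changed with genotype was tested as an interaction, the KO minus WT difference in bone marrow less that in spleen. No member passed in limma, against 0.00836% of all genes tested, and 3 had an unadjusted p under 0.05 (4.17%, against 9.13% of all genes): Ndufaf4 at -0.59 ± 0.25, Uqcr11 at -0.49 ± 0.22 and Atp5j at -0.35 ± 0.15 (adjusted p = 0.52, 0.55 and 0.52). The median was -0.17, against -0.01 over all genes, and 57 of 72 members were below 0 and 15 above, 20.8% against 48.0% of all genes above 0. The all-gene median was 0.0437 without the low-signal filter and -0.0722 with a filter at the 60th percentile. The members' median was -0.163 and -0.184 under these settings. The members' median was -0.076 when the arrays were quantile normalized again and -0.238 when they were centred on their medians, against 0.021 and -0.0781 over all genes. It was -0.105 without KO spleen 3. The granulocyte markers were below 0 for 9 of 9 genes, with a median of -2.21, and the cell cycle genes for 13 of 13, with a median of -0.78. Their part in the members' value was not tested beyond the covariate fits, in which the members' median was -0.121 with the granulocyte level, against -0.0889 over all genes, and -0.0757 with the cell cycle level, against -0.0121 over all genes.

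**Figure D5:**
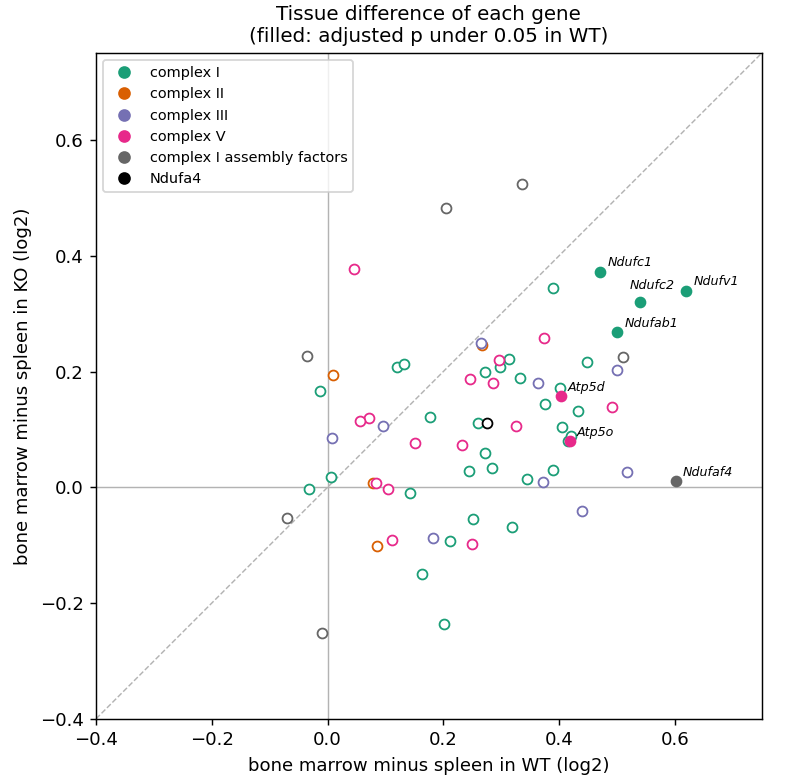
Each point is 1 of the 72 members, placed by its bone marrow minus spleen difference (log2) in WT cells on the horizontal axis and in KO cells on the vertical axis; filled points passed in WT, and the dashed line marks equal differences. Of the points, 67 lie right of 0 and 57 above 0, and most lie below the dashed line, as 57 members had an interaction below 0.

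The members varied together across arrays, which is a description of 12 arrays that share tissue, genotype and run. The median Pearson correlation between pairs of members was 0.36, against 0.00 between pairs of all genes, and 0.12 after group and run means were removed. Ndufb8, an accessory subunit of the membrane arm, correlated best with the mean of the other members (0.926), followed by Ndufv1 (0.91) and the stalk subunit Atp5pb (0.903). Ndufaf3 (-0.254), Ndufaf7 (-0.209) and Ndufa3 (-0.0405) did not follow the others. Ndufb8, Atp5pb, Ndufaf3, Ndufaf7 and Ndufa3 were singled out after their values were seen. The genes outside the group whose pattern over the 12 arrays was most like the members' mean were Cct5 (Pearson 0.962, Spearman 0.944), Eif3l (0.961, 0.979), Ruvbl1 (0.954, 0.944), Kpnb1 (0.953, 0.972) and Atpif1 (0.951, 0.958), followed by Cox5a, Timm13, Snrpd1, Ppa1 and Txn1 at 0.946 to 0.95. The same mean correlated at 0.762 with the level of the cell cycle genes, 0.759 with that of the granulocyte markers, 0.751 with that of the regulators and 0.613 with that of the complex IV subunits. The complex IV level is a mean of 15 genes that includes Cox6a2, which was higher in KO cells by 3.65 in spleen and 2.25 in bone marrow. Its part in the 0.613 was not tested.

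The other genes of the pathway were read against the 19.1% of all genes that passed over both tissues, and 4 of the 5 lists lay below that share. Among 15 complex IV subunits 1 (6.67%) passed in each KO comparison, Cox6a2, the muscle form of a subunit, which was higher in KO cells by 2.95 ± 0.12 over both tissues (adjusted p = 3.7e-08), and the list's median over both tissues was 0.06. Of 7 carriers and coupling genes 3 were higher in KO spleen, 0 passed in KO bone marrow, and 2 (28.6%) were higher over both tissues: Slc25a5, an ADP/ATP carrier, at 0.40 ± 0.07 and Vdac1, an outer membrane channel, at 0.37 ± 0.10 (adjusted p = 0.0017 and 0.024). In WT cells 4 of these 7 (57.1%, against 5.37% of all genes) were higher in bone marrow than in spleen, with a list median of 0.57. Of 11 complex IV assembly genes and 17 other assembly factors 1 each (9.09% and 5.88%) was higher in KO cells in the mean over both tissues. These were Cox20 at 0.30 ± 0.08 and the complex III assembly factor Uqcc2 at 0.42 ± 0.09 (limma, adjusted p = 0.028 and 0.0043). Both passed in spleen and not in bone marrow (adjusted p = 0.51 and 0.32 there). Of 15 regulators of mitochondrial gene expression 2 (13.3%) were higher in KO cells in the mean over both tissues, where the list's median was -0.02. These were Myc at 0.75 ± 0.08 and Ppargc1a, a coactivator of mitochondrial genes, at 0.83 ± 0.14 (limma, adjusted p = 5.6e-05 and 0.0011). Myc was at 1.2 in spleen and 0.31 in bone marrow (adjusted p = 7.3e-05 and 0.18), and Ppargc1a at 0.62 and 1.03 (0.072 and 0.012). In bone marrow 1 regulator was higher and 1 lower (13.3%, against 8.65% of all genes).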

How the data were processed

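RNA of 12 samples was hybridised to Affymetrix arrays after amplification with the NuGEN Ovation PicoSL WTA System V2, per the labels' protocols. The authors deposited log2 signals by probe set, made with Affymetrix Expression Console and RMA per the submitters' processing notes. Versions, annotation and genome build were not given in the sources used here. Of 35556 probe sets, 21789 carry 1 gene symbol, 1621 several and 12146 none. All 73 members matched the RefSeq gene table (GRCm38.p6), and 13 have several probe sets, where copies of a gene may share signal. 3 probe sets that name a member among several symbols were left out.

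Group means and a covariate for the run of array numbers (7 and 5 arrays, called runs from the labels' numbers alone) were fitted with limma 3.58.1 in R 4.3.3. Its moderated variances rest on 7 residual degrees of freedom and 4.74 prior ones. P-values were Benjamini-Hochberg adjusted over 11963 genes and called under 0.05. The run itself gave 0 called members and 0 called genes among all genes tested. The number of arrays limits the precision. Alternatives covered the run, replicate numbers, scaling, filter, probe sets, variance trend, marker covariates and each array left out.

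The members and lists were chosen with earlier results of these data known. Named genes are the members called in any comparison, the highest and lowest over both tissues per complex and among the assembly factors, complex II, Cyc1, the c-ring genes, Ndufa4, Ndufa4l2, the members at the filter, the 4 smallest p-values over both tissues among called genes of each pathway list, and the 10 genes most like the members (Pearson, 12 arrays), and Mir142. The cell cycle covariate was added after the data were seen.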

Additional observations from a re-analysis of the deposited data

How the results depend on the processing

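Members called in spleen, 3, became 7 with a variance trend and 1 with the granulocyte covariate (2 to 4 with 1 array left out). The count of 1 in bone marrow became 2 with the trend, 0 with the granulocyte covariate and 0 with the cell cycle covariate (1 throughout with 1 array left out), and the members' median there reversed to 0.0572 under repeated quantile normalization. The interaction median of -0.173 was -0.076 under that setting and -0.0757 with the cell cycle covariate. Over both tissues 6 became 11 with the trend and 3 with the granulocyte covariate (3 to 6 with 1 array left out, 3 without KO spleen 2 or WT spleen 1). Between tissues in WT, 7 became 11 without the run covariate, 4 with the replicate block and 1 under repeated quantile normalization. The shares of all genes tested were 6.31%, 5.69% and 5%, against 5.37% in the main fit. The members called were 24 under median centring, 3 without a filter and 11 with a filter at the 60th percentile, beside 8.17%, 2.72% and 7.84% of all genes. They were 17 with the trend, and 0 with either marker covariate (0 to 8 with 1 array left out). The cause was not tested, other than that a filter changes how many genes share the adjustment. For the trend, the marker covariates and the left-out arrays the shares of all genes are not given here. Those counts therefore do not set the members apart from other genes. Counts in KO cells between tissues and for the interaction were 0 in all 22 alternatives each.

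Ndufa10 passed in spleen in 23 of 23 alternatives and over both tissues in 22 of 22, as Uqcr11 and Ndufs8 did over both tissues. Same-numbered arrays correlated at -0.0196 to 0.243. Of 12 pairs 6 were over 0.1, and in 9 of 12 the best match was the same number, a hint from the data and not the design. As not every pair was over 0.1, the numbers were not taken as pairs. The replicate block gave 2 called members in spleen (Atp5j adjusted p = 0.051) and 5 over both tissues (Ndufaf2 adjusted p = 0.067), beside 9.14% and 19% of all genes tested. Mir142 over both tissues stayed between -2.92 and -2.67 in 21 alternatives and fell below the filter in the other.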
